A study of Mus musculus with 4 samples.

Results

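The genes described here are 10 genes of insulin-like growth factor (IGF) and insulin receptor signalling: the ligand gene Igf1, the receptor genes Igf1r and Insr, the adaptor gene Irs1 and the binding protein genes Igfbp2, Igfbp3, Igfbp4, Igfbp5, Igfbp6 and Igfbp7. They were taken by name, as candidates for growth of the testis that remains after its partner is lost, and all 10 are among the 22073 genes of the deposited table. Poly(A) RNA was sequenced from the right testis of 4 healthy mature male mice of the outbred KM strain. In 2 mice, called hemicastrated 1 and 2, the left testis had been taken out before puberty, and the 2 control mice, called control 1 and 2 or the sham group (labelled normal), had a sham operation. The design text gives 2 mice per group while the protocol speaks of 3, and no genotype or age in days is stated. The testes were taken at maturity, so the libraries show the adult state and not the period of growth.

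IGF1 is a secreted hormone related to insulin, made by the liver and also within tissues. It acts through the receptor tyrosine kinase IGF1R, and insulin acts through the close relative INSR. Active receptors phosphorylate adaptors such as IRS1, which recruit PI3 kinase and the kinase AKT, while other adaptors lead to RAS and the MAP kinases. IGF-binding proteins hold IGFs outside the cell and limit or prolong their access to the receptor. In the mouse testis, both receptors are known to be needed for the multiplication of Sertoli cells, the nursing cells of the seminiferous tubules, and IGF1 is known to support testosterone synthesis in Leydig cells.

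None of the 10 genes passed the test for a difference between hemicastrated and control testes. Values are FPKM (fragments scaled to transcript length and to the number of mapped fragments), so levels can be compared between genes. Of the 10 genes, 6 averaged 1 FPKM or more and entered the test (limma on log2(FPKM + 1), with p-values adjusted over all 11343 genes tested), and 4 were under that level and were not tested: Igf1r, Irs1, Igfbp3 and Igfbp5. The test called 0 of the 6 lower and 0 higher at an adjusted p under 0.05, against 1.30% of all tested genes in either direction (1.19% lower and 0.106% higher). At an unadjusted p under 0.05 it had 1 of the 6, Igfbp7, against 10.5% of all tested genes. Igfbp5, under the filter, had the widest gap between the groups of the 10, with a control mean 13.2-fold above the hemicastrated mean. Its hemicastrated values were near the bottom of the measured range.

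In 4 of the 10 genes (Irs1, Igfbp5, Igfbp6 and Igfbp7) both hemicastrated libraries were below both controls, and in 0 of 10 both were above. Over the 18587 genes above 0 in at least 1 library, 24.5% were lower without overlap and 14.8% higher without overlap. Of the 6 tested genes, 4 had a negative difference (hemicastrated minus control) and the median was -0.19 on the log2(FPKM + 1) scale, against 56.6% negative and a median of -0.026 over all tested genes. With 2 libraries a group, an exact permutation test of 1 gene cannot give a two-sided p under 0.333. P-values of limma rest on the spread between these libraries, with each gene's variance drawn towards a trend over all tested genes. No spread beyond these libraries enters them.

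**Figure D1:**
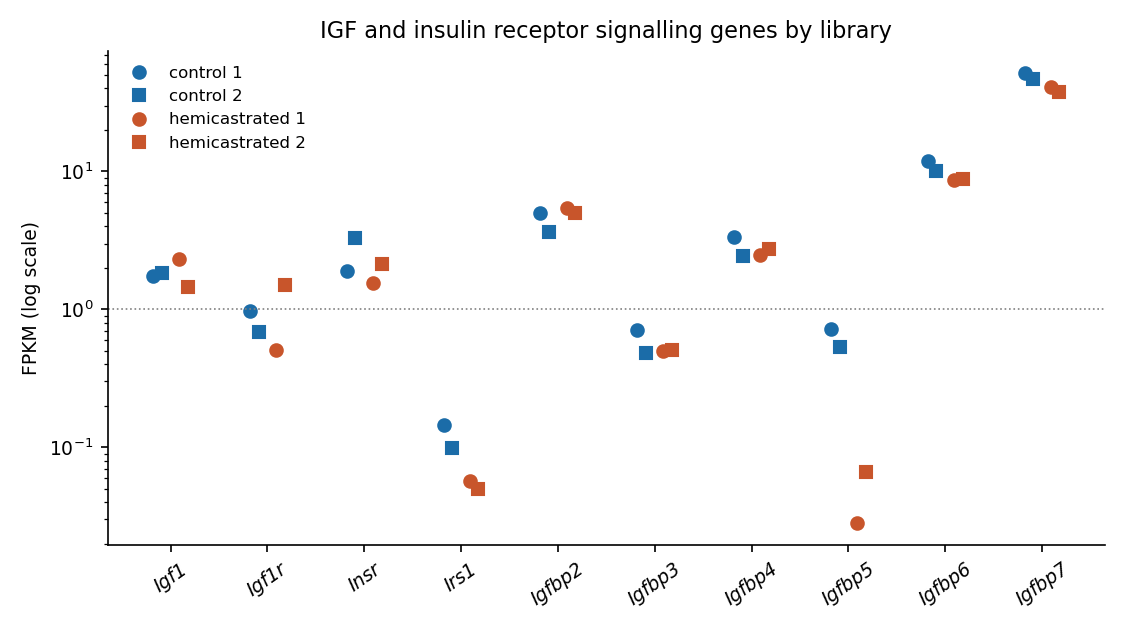
FPKM (log axis) of the 10 genes in each library; circles are replicate 1 and squares replicate 2, blue for control and orange for hemicastrated, and the dotted line marks the mean level needed for testing. Igfbp7 lies highest, at 37.5 to 51.6 FPKM, and the wide gap between groups is that of Igfbp5, with both hemicastrated libraries under 0.1 FPKM.

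The 10 genes spanned a wide range of levels, with the binding proteins at the top. By the mean of all libraries the order was Igfbp7 (44.2 FPKM), Igfbp6 (9.87), Igfbp2 (4.76), Igfbp4 (2.75), Insr (2.22), Igf1 (1.84), Igf1r (0.919), Igfbp3 (0.546), Igfbp5 (0.337) and Irs1 (0.0877). The libraries of Igfbp7, Igfbp6 and Igfbp2 did not overlap with those of the next gene in this order. Those of Igfbp4, Insr and Igf1 overlapped from each gene to the next, as did those of Igf1, Igf1r, Igfbp3 and Igfbp5. Irs1 was below Igfbp5 in both controls and in hemicastrated 2 and above it in hemicastrated 1. Among all genes of the table, Igfbp7 ranked 1645 from the top and Irs1 15969.

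The ligand gene Igf1 (ENSMUSG00000020053, chromosome 10, 87858265 to 87937042, GRCm38) was at 1.75 and 1.82 FPKM in the sham group and at 2.33 and 1.45 in the hemicastrated mice. The hemicastrated libraries lay on either side of the controls, so the groups overlapped. The difference was 0.036 on the log2(FPKM + 1) scale (limma 95% interval -0.41 to 0.48, adjusted p = 0.969), and its sign turned when hemicastrated 1 was left out (-0.18).

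The receptor gene Igf1r (ENSMUSG00000005533, chromosome 7, 67952827 to 68233668) was at 0.965 and 0.690 FPKM in the sham group and at 0.510 and 1.51 in the hemicastrated mice. Hemicastrated 1 was the lowest and hemicastrated 2 the highest of the 4 libraries. Insr (ENSMUSG00000005534, chromosome 8, 3122061 to 3279617), which encodes the insulin receptor, was at 1.90 and 3.27 FPKM in the sham group and at 1.55 and 2.14 in the hemicastrated mice. Control 2 stood above the other libraries and the groups overlapped. The difference of Insr was -0.31 (limma 95% interval -0.85 to 0.22, adjusted p = 0.693), and it was -0.036 without control 2 and -0.59 without control 1.

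Irs1 (ENSMUSG00000055980, chromosome 1, 82233101 to 82291416) encodes 1 of the adaptors that link both receptors to PI3 kinase. It was near the bottom of the measured range, at 0.145 and 0.0993 FPKM in the sham group and at 0.0568 and 0.0495 in the hemicastrated mice. The groups did not overlap and the control mean was 2.30-fold above the hemicastrated mean, at a level that was not tested. Of its 9144 exonic bases, 2822 are shared with Gm9747 on the opposite strand, which was at 0.156 and 0.111 FPKM against 0.0613 and 0.125, and the libraries carry no stated strand, so reads of the shared part cannot be told apart.

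Igfbp5 and Igfbp2 are neighbours on chromosome 1, transcribed towards each other with 5457 bases between their ends, and their values differed in pattern between the groups. Igfbp5 (ENSMUSG00000026185, 72857932 to 72874884, minus strand) encodes a binding protein that also attaches to extracellular matrix. Igfbp2 (ENSMUSG00000039323, 72824503 to 72852474, plus strand) encodes a soluble binding protein. Their promoter windows are shown because the genes are adjacent, with that of Igfbp7, the gene with the highest level, beside them. The difference in pattern between these neighbours was not tested. Each is the 250 bases before the RefSeq start (GRCm38.p6), 5′ to 3′ on the gene's strand, at chr1:72874866-72875115 for Igfbp5 (minus), chr1:72824230-72824479 for Igfbp2 (plus, the first of its 2 RefSeq windows) and chr5:77408046-77408295 for Igfbp7 (minus). Capitals mark GGGCGG on either strand, the core of the GC box bound by Sp1 family factors.
Igfbp5: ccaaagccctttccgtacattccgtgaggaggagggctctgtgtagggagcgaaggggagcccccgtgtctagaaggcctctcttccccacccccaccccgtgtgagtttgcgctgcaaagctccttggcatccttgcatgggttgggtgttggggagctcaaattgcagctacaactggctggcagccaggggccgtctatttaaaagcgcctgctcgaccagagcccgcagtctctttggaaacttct
Igfbp2: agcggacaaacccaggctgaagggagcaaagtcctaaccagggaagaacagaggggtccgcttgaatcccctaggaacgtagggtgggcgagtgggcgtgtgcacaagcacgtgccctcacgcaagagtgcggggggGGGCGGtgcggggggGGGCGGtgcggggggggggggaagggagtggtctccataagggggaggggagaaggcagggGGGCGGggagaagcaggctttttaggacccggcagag
Igfbp7: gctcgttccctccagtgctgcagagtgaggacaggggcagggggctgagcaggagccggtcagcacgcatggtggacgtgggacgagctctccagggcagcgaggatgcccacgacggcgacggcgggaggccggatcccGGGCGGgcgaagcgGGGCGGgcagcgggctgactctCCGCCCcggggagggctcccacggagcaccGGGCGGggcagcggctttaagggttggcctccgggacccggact
GGGCGG was found 0 times in the Igfbp5 window, 3 times in that of Igfbp2 and 4 times in that of Igfbp7, and TATAAA, the other motif searched on both strands, in none of the 3. Of 32851 RefSeq windows of this length, 32.7% held GGGCGG and 12.4% TATAAA. CpG dinucleotides numbered 10, 14 and 26, against a median of 6 over all windows. Of the 10 genes, 9 had a window in the RefSeq table. These are descriptions of sequence, and methylation of these windows was not analysed here.

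Igfbp5 was at 0.722 and 0.530 FPKM in the sham group and at 0.0284 and 0.0662 in the hemicastrated mice. Both hemicastrated libraries were far below both controls and near the bottom of the measured range, where a fold between means is uncertain. The group means were 0.626 ± 0.136 and 0.0473 ± 0.0267 FPKM (SD, n = 2 each). Of the 4445 genes that averaged 0.1 to under 1 FPKM, 5.60% were likewise lower without overlap and at least 4-fold apart. With no filter on low values the difference of Igfbp5 was -0.63 on the log2(FPKM + 1) scale (limma 95% interval -0.85 to -0.42, unadjusted p = 0.000884) and missed the threshold at an adjusted p of 0.0909, in a fit that called 0.646% of 18587 genes. With genes averaging 0.1 FPKM or more and a pseudocount of 0.1, chosen after seeing the data, it was -2.30 (95% interval -3.23 to -1.37, limma adjusted p = 0.0694), in a fit that called 1.06% of 15788 genes lower. Igfbp5 reached the level of 0.1 FPKM, for this fit and for the share of 5.60%, only through the controls.

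Igfbp2 was at 5.01 and 3.62 FPKM in the sham group and at 5.44 and 4.96 in the hemicastrated mice. Control 2 was the low library and control 1 lay between the hemicastrated values, so the groups overlapped. The difference was 0.23 (limma 95% interval -0.16 to 0.63, adjusted p = 0.689) and 0.045 without control 2.

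Igfbp7 (ENSMUSG00000036256, chromosome 5, 77349240 to 77408041) encodes a secreted protein that binds IGFs only weakly and is known from blood vessels. It was at 51.6 and 46.6 FPKM in the sham group and at 41.0 and 37.5 in the hemicastrated mice. Both hemicastrated libraries were below both controls, and the control mean was 1.25-fold above the hemicastrated mean. The difference was -0.32 (SE 0.10, limma 95% interval -0.56 to -0.074, unadjusted p = 0.0182), with an adjusted p of 0.324 that missed the threshold. It was -0.24 without control 1, -0.25 without hemicastrated 2, -0.38 without hemicastrated 1 and -0.39 without control 2. The gene Igfbp7 shares 85 exonic bases with Polr2b on the opposite strand, which was at 10.8 to 12.0 FPKM in the 4 libraries.

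Igfbp6 (ENSMUSG00000023046, chromosome 15, 102144362 to 102149511) encodes a binding protein that prefers IGF2 over IGF1. It was at 12.0 and 10.02 FPKM in the sham group and at 8.68 and 8.81 in the hemicastrated mice. The hemicastrated libraries lay close together, below both controls. The difference was -0.29 (limma 95% interval -0.59 to 0.0064, adjusted p = 0.486), and -0.18 without control 1.

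Igfbp3 (ENSMUSG00000020427, chromosome 11, 7206086 to 7213923) and Igfbp4 (ENSMUSG00000017493, chromosome 11, 99041244 to 99054392) had groups that overlapped. Igfbp3, which encodes the main IGF carrier of blood plasma, was at 0.702 and 0.480 FPKM in the sham group and at 0.495 and 0.507 in the hemicastrated mice. Igfbp4, which encodes a binding protein that holds IGFs back until it is cut by the protease PAPPA, was at 3.32 and 2.44 FPKM in the sham group and at 2.49 and 2.75 in the hemicastrated mice. In both genes control 1 was the highest library and control 2 the lowest. The difference of Igfbp4 was -0.094 (limma 95% interval -0.48 to 0.30, adjusted p = 0.888), with the opposite sign without control 1 (0.072) and under quantile normalization (0.0035).

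**Figure D2:**
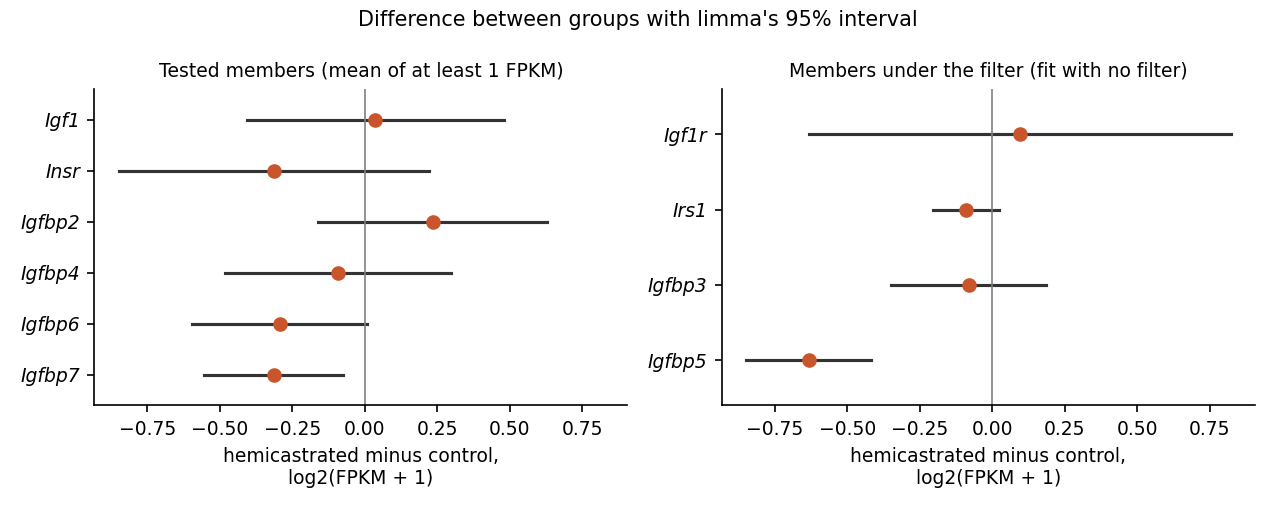
Difference between groups (hemicastrated minus control, log2(FPKM + 1)) with limma's 95% interval, at the left for the 6 tested genes and at the right for the 4 genes under the filter, from the fit with no filter. The intervals of Igfbp7 (-0.56 to -0.074) and Igfbp5 (-0.85 to -0.42) lie below 0, and both genes missed the adjusted threshold.

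The FPKM of the 6 binding protein genes added up to 73.3 and 63.7 in the sham group and to 58.2 and 54.6 in the hemicastrated mice. Both hemicastrated sums were below both controls (68.5 ± 6.8 against 56.4 ± 2.5, SD, n = 2 each, two-sided exact permutation p = 0.333, the smallest this design allows). Igfbp7 made up 70.4% and 73.2% of the sum in the sham group and 70.5% and 68.7% in the hemicastrated mice. Without Igfbp7 the sums were 21.7 and 17.1 in the sham group against 17.1 and 17.1 in the hemicastrated mice, where control 1 was the only library that stood higher. The share of Igfbp2 was 6.83% and 5.69% in the sham group and 9.35% and 9.10% in the hemicastrated mice, and that of Igfbp5 was 0.986% and 0.833% against 0.0489% and 0.121%.

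**Figure D3:**
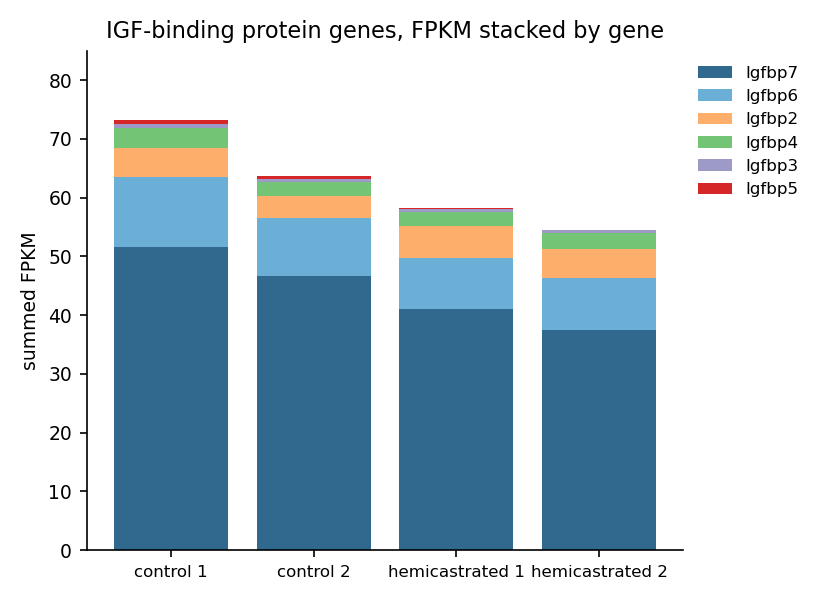
FPKM of the 6 binding protein genes stacked for each library, from 0. The total runs from 73.3 in control 1 to 54.6 in hemicastrated 2, and the Igfbp7 segment takes 68.7% to 73.2% of each bar.

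The other genes of the pathway, in lists of 69 genes from ligands to kinases, also had 0 called lower and 0 called higher among the 48 tested. At an unadjusted p under 0.05 the count was 3 of 48, against 10.5% of all tested genes. Of the 48, 37 had a negative difference and the median was -0.093, against 56.6% negative and a median of -0.026 over all tested genes. Without overlap, 17 of 48 were lower and 1 was higher, against 24.8% and 16.3% of all tested genes.

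Of 8 other ligand, receptor and binding genes, 1 was tested. It was Igf2, which encodes the second IGF, at 1.13 and 1.66 FPKM in the sham group and at 1.79 and 1.94 in the hemicastrated mice, with no overlap (difference 0.26, limma 95% interval -0.13 to 0.66, adjusted p = 0.650). The difference of Igf2 was 0.11 without control 1 and 0.42 without control 2. Among 6 genes whose products cut binding proteins or block such proteases, 3 were tested and all 3 had negative differences: Pappa, the IGFBP4 protease (-0.28), Htra1 (-0.39, from -0.73 without hemicastrated 1 to -0.064 without hemicastrated 2, and -0.71 and -0.075 without control 2 and control 1) and Htra3 (-0.21, with a positive sign without control 1 or hemicastrated 2). Stc1, named after its values were seen, encodes stanniocalcin 1, an inhibitor of PAPPA, and was under the filter. It was at 0.314 and 0.377 FPKM in the sham group and at 0.0155 and 0.0134 in the hemicastrated mice, a control mean 23.9-fold above the hemicastrated mean. The hemicastrated values of Stc1 were near the bottom of the measured range, where a fold between means is uncertain. With no filter Stc1 missed the threshold in limma (adjusted p = 0.0796).

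None of the adaptors and kinases below the receptors passed the test. Of 10 tested adaptors and inhibitors, 8 had negative differences (median -0.19), led by Grb10, which encodes an inhibitory adaptor (-0.31, limma adjusted p = 0.510), and Sos1, which encodes the exchange factor for RAS (-0.31, limma adjusted p = 0.516). Of 22 tested genes of PI3 kinase, AKT and mTOR signalling, 19 had negative differences between -0.24 and 0, with a median of -0.089. The phosphatase gene Phlpp1 was at 32.6 and 31.6 FPKM in the sham group and at 26.3 and 27.9 in the hemicastrated mice (-0.24, limma adjusted p = 0.435), and Akt1 was at 10.9 and 11.1 against 10.2 and 8.46 (-0.22, and -0.10 without hemicastrated 2). Of 9 RAS and MAP kinase genes, 4 had negative and 5 positive differences (median 0.0029), with Hras at 0.24 and Map2k1 at -0.25. The difference of Hras was 0.10 without control 2, 0.12 without hemicastrated 1 and 0.37 without control 1, and that of Map2k1 was -0.16 without control 1.

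The growth hormone axis, which controls Igf1 transcription in liver, held the tested pathway genes with the lowest adjusted p. Jak2, the kinase of the growth hormone receptor, was at 1.97 and 1.87 FPKM in the sham group and at 0.692 and 0.864 in the hemicastrated mice. The groups of Jak2 did not overlap, and the difference was -0.72 (SE 0.14, limma 95% interval -1.06 to -0.37), with an adjusted p of 0.116 that missed the threshold. Stat5a, a transcription factor activated by JAK2, was at 1.51 and 1.52 FPKM against 0.769 and 0.729 (difference -0.52, limma adjusted p = 0.240). Jak2 and Stat5a reached the filter of 1 FPKM only through the controls, as their hemicastrated values were all under 1. These kinases and factors also serve other cytokine receptors. The receptor gene Ghr itself, under the filter and named after its values were seen, was at 0.715 and 0.512 against 0.919 and 0.294 FPKM, so its groups overlapped, and Socs2, a feedback inhibitor, was at 1.18 and 1.002 against 0.608 and 1.52.

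**Figure D4:**
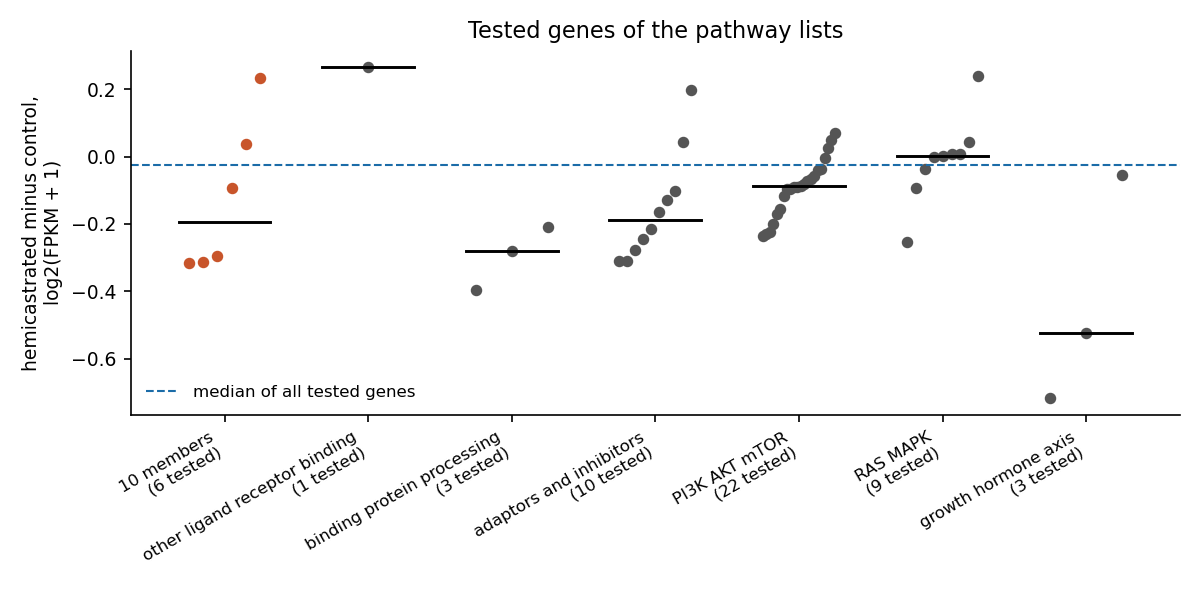
Difference between groups (hemicastrated minus control, log2(FPKM + 1)) of each tested gene of the 10 and of 6 lists of other pathway genes; black bars are medians and the dashed line is the median of all tested genes (-0.026). The lowest points are Jak2 (-0.72) and Stat5a (-0.52) of the growth hormone axis, which reached the filter only through the controls.

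Markers of several cell types differed between the same libraries. Epididymis markers summed to 1425 and 1985 FPKM in the sham group and to 6.91 and 10.3 in the hemicastrated mice, with 8 of 9 tested genes called lower by limma, in a list chosen with these results known. Adam7 and Defb2 were listed at 0 in both hemicastrated libraries, and Lcn5 and Lcn8 were listed at 0 in all 4. Smooth muscle and myoid markers, of which 5 of 10 were called lower, summed to 356 and 315 FPKM against 234 and 263. Most of that sum was Actg2, which was not called, at 219 and 213 FPKM against 183 and 209. All 10 had negative differences, with a median of -1.02. Fibroblast and matrix markers summed to 64.4 and 49.6 against 35.5 and 24.0. Of 7 tested, 0 were called and 5 had an unadjusted p under 0.05 in limma. The other 2, Pdgfra (0.0024) and Mfap5 (0.24), had positive differences and groups that overlapped. Igfbp5, Igfbp6, Igfbp7, Irs1, Jak2, Stat5a and Stc1 were lower in the libraries where the sums of these 3 lists were lower. The part of these cell types in those values was not tested. In a bulk sample, fewer cells of a type and less RNA per cell cannot be told apart.

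Endothelium markers summed to 15.9 and 11.9 FPKM in the sham group and to 12.9 and 12.9 in the hemicastrated mice, with 0 of 3 tested genes called. The sum was carried by Egfl7 and Cldn5, without which it was 6.09 and 5.21 against 4.31 and 4.32. Of the 10 endothelium genes, 6 (Pecam1, Cdh5, Kdr, Flt1, Tek and Emcn, all under the filter) were lower without overlap and 0 higher, in the libraries where Igfbp7 was lower, against 24.5% and 14.8% of genes above 0 in at least 1 library. The part of endothelium in the Igfbp7 values was not tested. Macrophage markers summed to 55.6 and 52.4 against 47.6 and 41.2, with 0 of 6 called. Of the cells that IGF1 acts on in the testis, Leydig markers summed to 1668 and 1560 FPKM against 1936 and 1830, with 0 of 9 called, and Sertoli markers to 593 and 613 against 720 and 671, with 0 of 10 called. The Leydig sum was carried by Insl3: the other 8 genes summed to 396 and 328 against 327 and 346 FPKM, and 5 of the 9 had negative differences (median -0.0074). Without Cst9 and Cst12 the Sertoli sum was 474 and 462 against 502 and 451, where the groups overlapped. Spermatogonia markers summed to 62.2 and 59.1 against 58.9 and 55.4 FPKM (0 of 6 called), and spermatocyte and spermatid markers to 19115 and 20540 against 21744 and 21683 (0 of 12 called). At an unadjusted p under 0.05, limma had 0 of the tested endothelium genes, 1 of the macrophage, 3 of the Leydig, 3 of the Sertoli, 0 of the spermatogonia and 7 of the spermatocyte and spermatid genes. Of these, Insl3, Star, Cst9, Cst12 and Aard were higher, and Lhcgr and Lyz2 lower. Among the spermatocyte and spermatid genes, Sycp3, Sycp1, Hormad1, Acrv1, Spaca1 and Tnp1 were higher and Spo11 lower. Without overlap, 7 of these 12 were higher and 1 lower, against 16.3% and 24.8% of all tested genes. The genes of these germ and somatic lists were all above 0. So were 18587 of all 22073 genes in at least 1 library, and this does not identify the tissue. Epididymis markers, of an organ other than the labelled one, summed to 1425 and 1985 FPKM in the sham group against 6.91 and 10.3. The part of other tissue taken along with the testis in this difference was not tested.

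**Figure D5:**
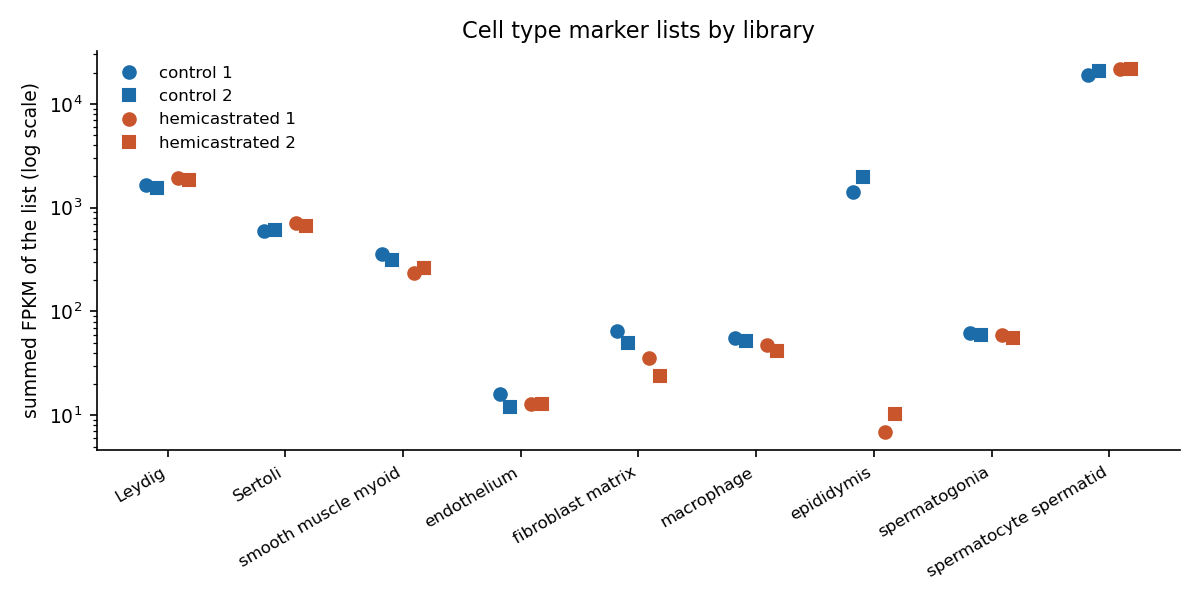
Summed FPKM (log axis) of each cell type marker list in each library; circles are replicate 1 and squares replicate 2, blue for control and orange for hemicastrated, and the epididymis list stands at 1425 and 1985 FPKM in the sham group against 6.91 and 10.3 after hemicastration. The Leydig sum is mostly Insl3, the smooth muscle and myoid sum is mostly Actg2, and the Sertoli groups overlap without Cst9 and Cst12.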

How the data were processed

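Poly(A) RNA of 4 right testes was sequenced, per the labels' protocols, which describe no step that marks the strand. The sample labels name the molecule as genomic DNA, and the values were read as RNA. Per the file headers, the deposited table holds 1 FPKM value for each gene in each library. TopHat2 2.0.11, Cufflinks 2.2.1 and the build GRCm38 appear in the submitters' processing notes. The gene annotation and the roles of these tools are not given in the sources used here. FPKM carry no counts, so depth is unknown. The summed FPKM ran from 343105 to 353135 per library. An exact 0 can be a failed estimate (every library has 0 for the ribosomal protein genes Rpl13 and Rpl17), so such genes are called listed at 0.

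GENCODE M21 (GRCm38) named 21806 of 22073 genes and gave positions. The 11343 genes that averaged 1 FPKM or more were compared as log2(FPKM + 1) by limma 3.58.1 (R 4.3.3), using a variance trend and no covariate, two-sided, and Benjamini-Hochberg adjustment over all of them. Differences on this scale understate those of low genes. The test was checked only on data simulated from its own fitted model, which cannot show how it behaves on these values. The 10 genes and all lists were chosen with earlier results of these data known. The text names all 10, up to 4 tested genes of each pathway list (lowest p first) and the marker lists. Alternatives changed the pseudocount, filter, scaling, variance model, replicate block and libraries.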

Additional observations from a re-analysis of the deposited data

How the results depend on the processing

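None of the 10 genes and none of the 69 other pathway genes passed the threshold under any of the 15 other settings tried (14 planned, 1 added after seeing the data) in which they were tested. The adjusted p of the 6 tested genes ran from 0.266 (Igfbp7) upwards, and Igfbp6 and Igfbp7 kept a negative difference throughout. Leaving out 1 library turned the sign of 6 uncalled genes: the difference ran from -0.18 (without hemicastrated 1) to 0.26 for Igf1, from -0.26 to 0.072 (without control 1) for Igfbp4, from -0.48 to 0.062 (without hemicastrated 2; 0.0029 without control 1) for Htra3, from -0.24 to 0.049 (without control 1) for Mapk3, from -0.061 (without control 2) to 0.15 for Map2k2 and from -0.38 to 0.27 (without hemicastrated 1; 0.0068 without control 1) for Socs2. Quantile normalization turned Igfbp4 (0.0035) and Socs2 (0.099). Igf1r, Irs1, Igfbp3 and Igfbp5 gave values only with lower filters or rescaled to TPM.

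Over all genes, 135 were called lower and 12 higher. The counts were 63 and 7 among genes averaging 5 FPKM or more, where fewer genes were tested, and 117 and 3 with no filter. Leaving out 1 library gave 78 (without control 2) to 156 lower and 0 (without control 2) to 26 higher, with 4 higher without control 1 and 24 without hemicastrated 1. With the replicate block, 167 were lower and 30 higher, and no pathway gene was called. The labels do not say that equal numbers pair mice, and the deviations of same-numbered libraries from their group means correlated at 0.014 over 11343 genes. The cause of these moves was not tested. With 2 libraries a group and unknown depth, differences under the intervals given cannot be resolved.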
